A study of Mus musculus with 2 samples.

Results

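Interleukin-34 (Il34) and colony stimulating factor 1 (Csf1) are the ligands of Csf1r, a receptor tyrosine kinase on which microglia and other tissue macrophages depend for survival. Both ligands bind the same receptor but come from different cells, so the cell source of each sets where the receptor can be engaged. Interleukin-34 also binds Ptprz1, a receptor-type tyrosine phosphatase of glial cells, and Sdc1 (syndecan-1), a heparan sulphate proteoglycan of the cell surface. These 5 genes were chosen by symbol among the 25906 genes listed, and all 5 were present. Their unique molecular identifiers (UMIs, 1 per captured transcript molecule) were summed per cell class and library and scaled to CPM, the UMIs of a gene for every 1000000 UMIs of that class.

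Whole brains of adult mice were the source, and the sort was for astrocytes and for endothelial cells. There was 1 library of mice with the genotype IL34LacZ/LacZ, which the study's design treats as knockout, and 1 library of mice with the genotype IL34LacZ/+, which it treats as wild type although these mice also carry 1 LacZ allele. The sources used here do not give the sort markers, the strain, the exact ages, how many mice went into a library or where LacZ was inserted. Total depth was 36696941 UMIs over 5400 barcodes in the library labelled IL34LacZ/LacZ and 26679053 UMIs over 3901 barcodes in the library labelled IL34LacZ/+. The filters kept 1167 and 1646 cells, whose median depth was 10366 and 8026 UMIs. The libraries shared 8 barcodes, 2 of them among kept cells.

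A cell was put in a class when at least 50% of that class's marker genes had a UMI and no other class's list reached that share. The lists of arterial endothelium, venous endothelium and erythrocytes set no class and kept no cell out of one. None of the 5 genes was a marker. The sort held many other cells. In the library labelled IL34LacZ/LacZ the gate found 292 endothelial-like, 245 choroid plexus epithelium, 225 oligodendrocyte-like, 109 astrocyte-like, 44 pericyte-like, 37 fibroblast-like and 10 microglia-like cells. In the library labelled IL34LacZ/+ it found 491 endothelial-like, 335 choroid plexus epithelium, 235 oligodendrocyte-like, 233 astrocyte-like, 31 pericyte-like, 35 fibroblast-like and 44 microglia-like cells. Another 30 and 31 cells reached 50% of both the fibroblast and the meningeal border lists. Cells at 50% of several other lists (80 and 116) were kept apart as mixed. No cell passed the list of oligodendrocyte precursors, and 1 cell in all passed the list of perivascular macrophages, the class named in the study's title.

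With 1 library per genotype there was no replicate and no test, and the difference between the genotypes cannot be told apart from a difference between the libraries. Each CPM carries an exact Poisson 95% interval and each log2 ratio of IL34LacZ/LacZ over IL34LacZ/+ an exact conditional binomial 95% interval. Both cover counting error only. A gene counts as higher or lower here only if the ratio is past 1.5-fold and the log2 interval does not include 0.

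The gene Il34 (ENSMUSG00000031750) is on chromosome 8, minus strand (GRCm38, chr8:110741829-110805924). Its main transcript has 7 exons, and the stop codon lies in the last one, 439 bases before the end of the 1709-base transcript. The assay counts fragments near that end. The last 60 coding bases and the stop codon (GENCODE M21 transcript ENSMUST00000076846.10, chr8:110742279-110742341, minus strand) are shown to mark where the reading frame ends relative to the counted end, with the stop codon in capitals.
Il34 coding end: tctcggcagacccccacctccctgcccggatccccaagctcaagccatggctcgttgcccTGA
Where LacZ was inserted is not given in the sources used here, so the Il34 level does not check the genotype. No lacZ gene was among the features. The antisense genes Gm15894 and Gm15895, which overlap Il34 on the opposite strand, were not among the features either.

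Il34 was found in pericyte-like cells, which wrap the capillaries, and in a subset of fibroblast-like cells, and it was close to 0 in the classes that were sorted for. In all kept cells there were 262 Il34 UMIs in the library labelled IL34LacZ/LacZ and 165 in the library labelled IL34LacZ/+, or 18.8 and 10.3 CPM. Pericyte-like cells held 46.6% and 31.5% of these UMIs. Fibroblast-like cells held 15.3% and 38.8%. Mixed cells held 28.6% and 12.7%. Pericyte-like cells were 3.77% and 1.88% of the kept cells, and the part of this share in the pooled level was not tested. The pooled level is not a level per cell. It was not lower where the label names a knockout, and every direction below rests on the label alone.

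The pericyte-like level of Il34 was 528 CPM (439 to 631) from 122 UMIs in the library labelled IL34LacZ/LacZ and 371 CPM (277 to 486) from 52 UMIs in the library labelled IL34LacZ/+. The log2 ratio was 0.51 (0.03 to 1.01), under the 1.5-fold limit. With clusters in place of the marker gate the 48 and 37 cells gave 516 and 310 CPM, a log2 ratio of 0.73 (0.30 to 1.18), which counted as higher. Il34 was the only one of the 5 genes with enough UMIs for this comparison in the class, where 6.14% of 586 measured genes counted as higher and 4.1% as lower. At least 1 Il34 UMI was found in 36 of 44 and 20 of 31 cells, and the median cell had 434 and 295 CPM. One cell of the library labelled IL34LacZ/LacZ held 27 Il34 UMIs, while no pericyte-like cell of the library labelled IL34LacZ/+ held more than 7. Without the top cell of each library the levels were 433 and 335 CPM, and the interval of the ratio then included 0 (-0.15 to 0.92). The summed haemoglobin and other erythrocyte markers of these pericyte-like cells also differed, at 18424 and 4455 CPM, and their part in the Il34 value was not tested.

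Fibroblast-like cells split into a group with Il34 and a group without it. These cells fell into clusters that were made without any of the 5 genes. The cluster led by Cemip, Lama1, Slc6a13 and Col15a1, with Dcn, a collagen-binding proteoglycan, among its leading genes, held 40 Il34 UMIs in 11 fibroblast-like cells of the library labelled IL34LacZ/LacZ and 60 in 15 cells of the library labelled IL34LacZ/+. The levels were 400 CPM (286 to 545) and 432 CPM (329 to 555), whose intervals overlap each other and those of pericyte-like cells. In the cluster led by Mgp, Slc47a1 and Bnc2 there were 0 Il34 UMIs in 25 fibroblast-like cells and 4 in 20 cells, or 0 CPM and 13.8 CPM (3.76 to 35.3). A count of 0 there allows up to 7.70 CPM.

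Taken over the whole class, Il34 was lower in fibroblast-like cells of the library labelled IL34LacZ/LacZ, at 81.2 CPM (58.0 to 111) against 149 CPM (115 to 191) in the library labelled IL34LacZ/+. The log2 ratio was -0.88 (-1.49 to -0.29), in a class where 7.27% of 1982 measured genes counted as lower and 4.99% as higher. Il34 was found in 8 of 37 and 15 of 35 cells. Within the cluster led by Cemip, Lama1 and Slc6a13 the log2 ratio of the same fibroblast-like cells was -0.11 (-0.72 to 0.49). With every cell of that cluster, mixed cells included, the library labelled IL34LacZ/LacZ had the higher Il34, with 433 CPM (358 to 520) over 25 cells, against 296 CPM (234 to 369) over 23 cells of the library labelled IL34LacZ/+, and a log2 ratio of 0.55 (0.13 to 0.98). Mixed cells held 75 and 21 Il34 UMIs, 28 of the 75 in 1 cell. The direction in fibroblasts therefore depends on which cells are admitted.

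**Figure D1:**
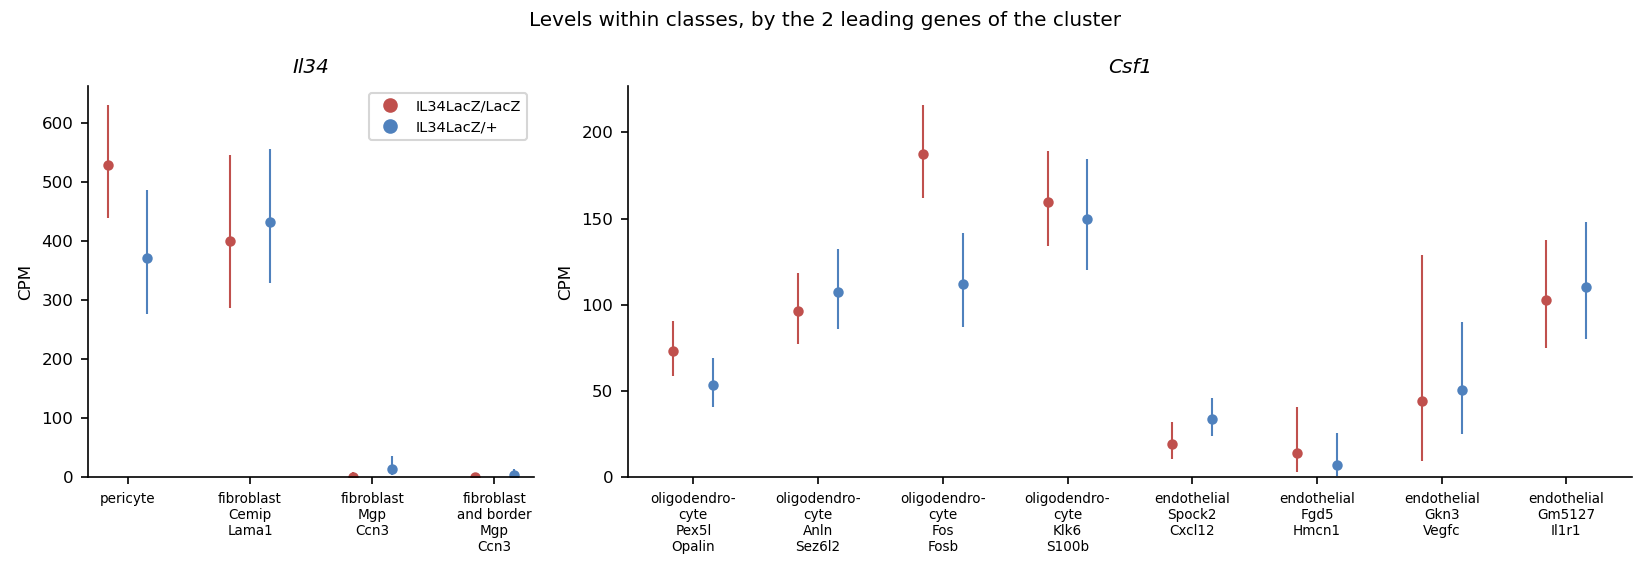
Levels within classes. CPM of Il34 (left) and Csf1 (right) with exact Poisson 95% intervals, IL34LacZ/LacZ in red and left of IL34LacZ/+ in blue, in pericyte-like cells and in class cells split by cluster, with the class and 2 leading genes of each cluster below. Il34 lies between 371 and 528 CPM in pericyte-like cells and in the fibroblast-like cells led by Cemip and Lama1 and under 20 CPM in those led by Mgp, and of the clusters drawn, which leave out the cells led by Igfbp3 and Plvap and those led by Ctla2a, Csf1 is lowest in the endothelial-like cells led by Fgd5 and Spock2.

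In the sorted classes Il34 was at the level of stray counts. Endothelial-like cells held 1 and 0 UMIs, and astrocyte-like cells held 0 and 1. Oligodendrocyte-like cells held 2 and 3 UMIs, the choroid plexus epithelium 0 and 4, and microglia-like cells none. Neurons are a known source of interleukin-34 in the brain, but the 10 and 16 neuron-like cells held no Il34 UMI, which with so few cells allows up to 49.0 and 41.1 CPM by the upper end of the interval.

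Across 21 class-by-library values, the genes whose log2(CPM + 1) was most like that of Il34 by Pearson correlation were Gm47171, Slc6a20a, Lamc3, Cd248 and Vtn, with r between 0.93 and 0.96. Vtn is itself a pericyte marker of the gate. The points share libraries and depth, so the correlation is a description.

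**Figure D2:**
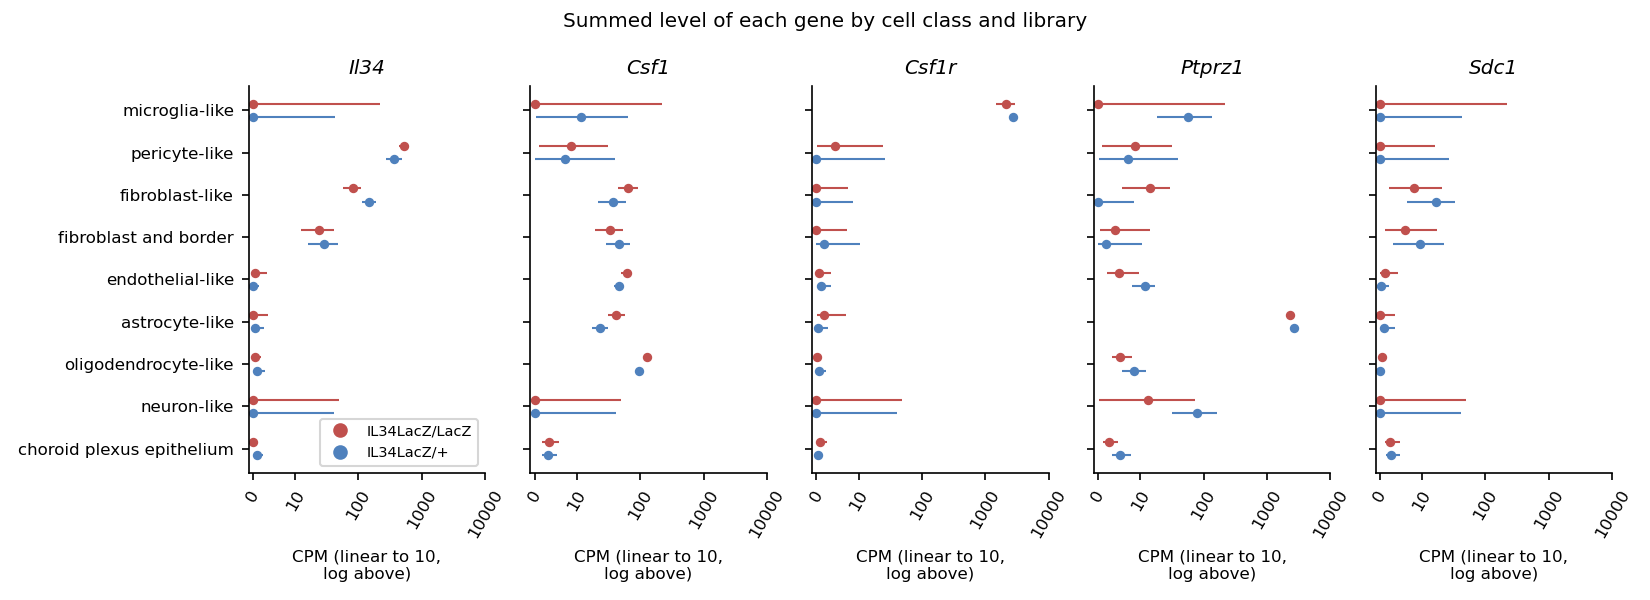
Levels by class. Summed CPM of each of the 5 genes (panels) in 9 cell classes (rows), with exact Poisson 95% intervals, on an axis that is linear up to 10 CPM and logarithmic above, IL34LacZ/LacZ in red above IL34LacZ/+ in blue. Il34 stands out in pericyte-like and fibroblast-like cells, Csf1r in microglia-like cells and Ptprz1 in astrocyte-like cells, while Csf1 is spread over several classes and Sdc1 stays under 20 CPM.

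Csf1, the other ligand (chromosome 3, chr3:107741048-107760469, minus strand, 9 exons), was found mainly in other classes than Il34, with fibroblast-like cells holding both. Oligodendrocyte-like cells, the myelinating glia, held 63.0% of its 792 UMIs in the library labelled IL34LacZ/LacZ and 48.6% of its 625 UMIs in the library labelled IL34LacZ/+. Pericyte-like cells held 2 and 1 Csf1 UMIs. Cells with both ligands were few: 2 of 44 and 0 of 31 pericyte-like cells, 2 of 225 and 1 of 235 oligodendrocyte-like cells, and 3 of 37 and 4 of 35 fibroblast-like cells. Of the fibroblast-like cells, 5 and 11 had Il34 alone and 16 and 8 had Csf1 alone. Of the cells on both the fibroblast and the border list, 0 and 3 had both ligands and 2 and 1 had Il34 alone. Whether the ligands share cells less often than their separate counts would give was not tested. No endothelial-like or astrocyte-like cell had a UMI of both.

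In oligodendrocyte-like cells Csf1 was at 126 CPM (115 to 138) in the library labelled IL34LacZ/LacZ and 96.6 CPM (86.1 to 108) in the library labelled IL34LacZ/+, from 499 and 304 UMIs. These were the highest levels of any class with 10 or more cells, with intervals above those of every other such class in the same library, with 2 exceptions of wide intervals. The 10 microglia-like cells of the library labelled IL34LacZ/LacZ had 0 Csf1 UMIs, with an upper end of 218 CPM, and the 14 meningeal border cells of the library labelled IL34LacZ/+ had 55.2 CPM, with an upper end of 101 CPM. Csf1 was found in 158 of 225 and 134 of 235 cells. The log2 ratio was 0.38 (0.17 to 0.59), which did not pass 1.5-fold, in a class where 1.23% of 6640 measured genes counted as higher and 1.39% as lower. The erythrocyte markers in these cells were at 8417 and 1541 CPM, and their part in the Csf1 value was not tested.

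Levels of Csf1 differed among the oligodendrocyte-like clusters. Cells of the cluster led by Klk6 and S100b had 160 CPM (134 to 189) and 150 CPM (120 to 184). Cells of the cluster led by Pex5l and Opalin, a marker of mature myelinating cells, had 73.3 CPM (58.7 to 90.4) and 53.7 CPM (40.9 to 69.2), below the Klk6 cluster in both libraries without overlap of the intervals. Cells led by Anln and Sez6l2 lay between, at 96.3 and 107 CPM. The cluster led by the immediate early genes Fos and Fosb and the heat shock gene Hspa1b had 188 CPM (162 to 216) in the library labelled IL34LacZ/LacZ and 112 CPM (87.2 to 142) in the library labelled IL34LacZ/+, a log2 ratio of 0.74 (0.34 to 1.16). That ratio counted as higher, but the share of all genes that did so in this cluster was not computed. Without that cluster the class stood at 105 and 92.8 CPM, with a log2 ratio of 0.18 (-0.07 to 0.43).

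In astrocyte-like cells the library labelled IL34LacZ/LacZ had more Csf1, 42.2 CPM (30.7 to 56.7) against 23.5 CPM (17.3 to 31.1) in the library labelled IL34LacZ/+. This rests on 44 and 48 UMIs in 31 of 109 and 37 of 233 cells. The log2 ratio was 0.85 (0.22 to 1.47). Among 9512 genes that had 30 UMIs or more there, 3.84% counted as higher and 3.91% as lower. By cluster, Csf1 had 56.6 and 28.1 CPM in the astrocyte-like cells led by Agt and Slc6a11, genes of non-telencephalic astrocytes, and 38.6 and 17.8 CPM in those led by Kcnd2 and Gria1. In those led by St6galnac5 and Cspg5 it had 28.9 and 22.2 CPM. The value in the library labelled IL34LacZ/LacZ was the higher one in each of these 3 clusters. With no filter on cells the log2 ratio was 0.58 (-0.02 to 1.18), and after thinning each cell to 1000 UMIs, which left 6 and 6 UMIs, it was 1.10 (-0.81 to 3.00), so under both settings Csf1 no longer counted as higher. The 8 meningeal border markers summed to 272 and 23.0 CPM in astrocyte-like cells, and all 3 of them that were measured (Slc47a1, Bnc2 and Rspo3) counted as higher. Erythrocyte markers were at 3869 and 1960 CPM. The part of these markers in the Csf1 value was not tested.

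In endothelial-like cells Csf1 had 61.7 CPM (50.3 to 75.0) in the library labelled IL34LacZ/LacZ and 46.8 CPM (38.7 to 56.0) in the library labelled IL34LacZ/+, with a log2 ratio of 0.40 (0.00 to 0.80) under the 1.5-fold limit. In this class 2.42% of 6004 measured genes counted as higher and 5.55% as lower. A single cell of the cluster led by Igfbp3, Plvap and Btnl9 held 30 of the 101 UMIs in the library labelled IL34LacZ/LacZ. Without the top cell of each library the levels were 43.9 and 42.6 CPM, and without the Plvap cluster the log2 ratio was -0.17 (-0.63 to 0.28).

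Among endothelial-like clusters the level of Csf1 was uneven. The few cells led by Igfbp3 and Plvap, 7 and 10 in number, had 597 CPM (416 to 830) from 35 UMIs, 30 of them in the single cell above, in the library labelled IL34LacZ/LacZ and 38.6 CPM (4.67 to 139) from 2 UMIs in the library labelled IL34LacZ/+. Of the other clusters, the one with venous genes was highest in both libraries. The cluster led by Gm5127, Il1r1, Vwf and Slc38a5, of which Vwf and Slc38a5 are markers of venous endothelium, had 103 CPM (75.0 to 137) and 110 CPM (80.0 to 148). Cells led by Spock2 and Cxcl12, a large group of the capillary type, had 19.0 CPM (10.4 to 31.9) and 33.7 CPM (24.1 to 46.0). Its intervals lay below those of the venous cluster in both libraries. Cells led by Gkn3, Vegfc and Bmx, genes of arterial endothelium, had 44.1 and 50.3 CPM from 3 and 11 UMIs. The venous cluster made up 55 of 292 and 54 of 491 endothelial-like cells.

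Fibroblast-like cells had 64.9 and 37.3 CPM of Csf1 from 32 and 16 UMIs, with an interval of the log2 ratio that included 0 (-0.11 to 1.76). Among 5929 genes that had 30 UMIs or more there, 4.96% counted as higher and 6.97% as lower. Csf1 did not follow the Il34 split among them: it had 80.1 and 43.2 CPM in the cells led by Cemip and Lama1 and 61.6 and 34.5 CPM in those led by Mgp and Slc47a1, with overlapping intervals. Choroid plexus epithelium was low, at 3.38 and 3.16 CPM. The genes most like Csf1 over the 21 values were Homer3, Gng11, Gm42826, Abhd5 and Cdc42se1, with r between 0.87 and 0.90.

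**Figure D3:**
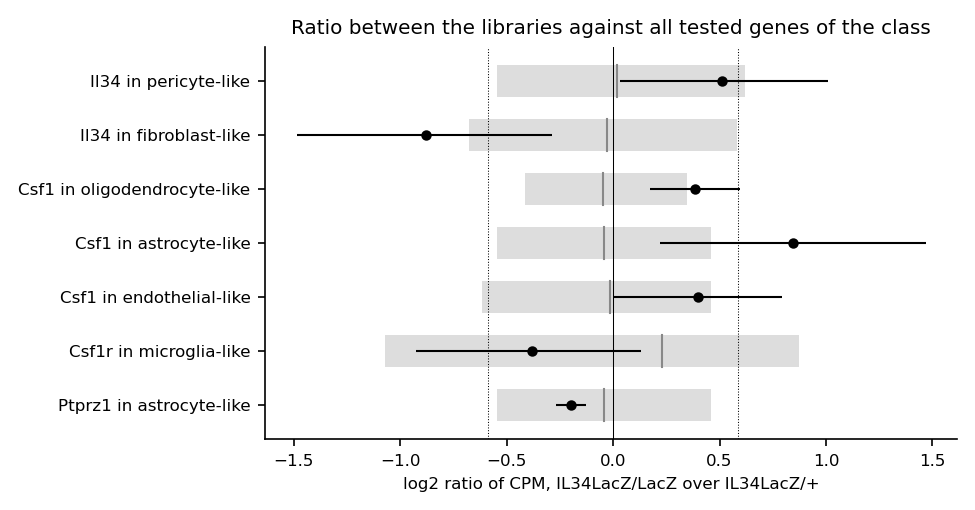
Ratios between the libraries. Points are log2 ratios of CPM, IL34LacZ/LacZ over IL34LacZ/+, with exact conditional binomial 95% intervals, and dotted lines mark 1.5-fold. Grey bars span the 5th to 95th percentile of the ratios of the genes of the class with at least 100 UMIs and 20 CPM, with their median as a line. Csf1 in astrocyte-like cells, with 44 and 48 UMIs, is below that limit and is drawn against deeper genes. Il34 in fibroblast-like cells (-0.88) and Csf1 in astrocyte-like cells (0.85) lie beyond the dotted lines, and the other 5 points lie within them.

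Csf1r (chromosome 18, chr18:61100598-61132149, plus strand, 21 exons) was found in microglia-like cells, the resident macrophages of the brain, which a sort for endothelial cells and astrocytes is meant to leave out. Its last exon overlaps Hmgxb3 on the opposite strand. The microglia-like cells were few, shallow and unequal in number: 10 cells with a median of 1722.5 UMIs in the library labelled IL34LacZ/LacZ and 44 cells with a median of 1756 UMIs in the library labelled IL34LacZ/+. Their microglia markers summed to 50929 and 39177 CPM. Of the perivascular macrophage markers, Mrc1, Cd163, Lyve1, F13a1, Pf4, Cbr2, Ms4a7 and Folr2 were at 0 in them in both libraries. The remaining marker of that list, Stab1, had 4 and 17 UMIs in them, or 237 and 195 CPM.

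Csf1r reached 2129 CPM (1491 to 2948) from 36 UMIs in the microglia-like cells of the library labelled IL34LacZ/LacZ and 2768 CPM (2430 to 3140) from 241 UMIs in those of the library labelled IL34LacZ/+. The intervals overlap, and the log2 ratio was -0.38 (-0.93 to 0.13). In this class 16.7% of 138 measured genes counted as higher and 7.97% as lower. The median log2 ratio was 0.23 over these genes and 0.01 over the 494 genes with at least 30 UMIs, so the distance of Csf1r from the typical gene depends on the gene set. A Csf1r UMI was found in 8 of 10 and 44 of 44 cells. The median cell had 1720 and 2182 CPM, and the highest cell 9 and 19 UMIs.

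The level is sensitive to which cells count as microglia. In the cells of the clusters named microglia, 14 and 45 in number, Csf1r was at 1097 and 2514 CPM, a log2 ratio of -1.20 (-1.68 to -0.74), which counted as lower. These cells held 46 and 244 Csf1r UMIs, against 36 and 241 in the gated cells. In the library labelled IL34LacZ/LacZ the Csf1r UMIs thus rose while the CPM fell, because the UMIs of all genes rose by more. With no filter on cells, 27 and 88 microglia-like barcodes gave 2471 and 2644 CPM, a log2 ratio of -0.10 (-0.47 to 0.26). The barcodes that the filters left out held 40.5% of all Csf1r UMIs of the library labelled IL34LacZ/LacZ and 29.0% of those of the library labelled IL34LacZ/+.

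Microglia-like cells held 54.5% of the Csf1r UMIs of kept cells in the library labelled IL34LacZ/LacZ and 90.3% in the library labelled IL34LacZ/+. In the other named classes the level of Csf1r was low. The endothelial-like cells held 1 and 3 UMIs, the astrocyte-like cells 2 and 1, the oligodendrocyte-like cells 1 and 2, and the fibroblast-like cells none. The pericyte-like cells, where Il34 was highest, held 1 and 0. Mixed cells held 18 and 12, or 27.3% and 4.49% of the Csf1r UMIs. Over all kept cells Csf1r was at 4.75 and 16.7 CPM, which is not a level per cell. Microglia-like cells were 0.857% and 2.67% of the kept cells, and the part of this share in the difference was not tested. The genes most like Csf1r over the 21 values were Siglech, Tyrobp, Cx3cr1, Laptm5 and C1qa, with r between 0.95 and 0.96, all known genes of microglia. Siglech, Cx3cr1 and C1qa are markers of the gate.

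**Figure D4:**
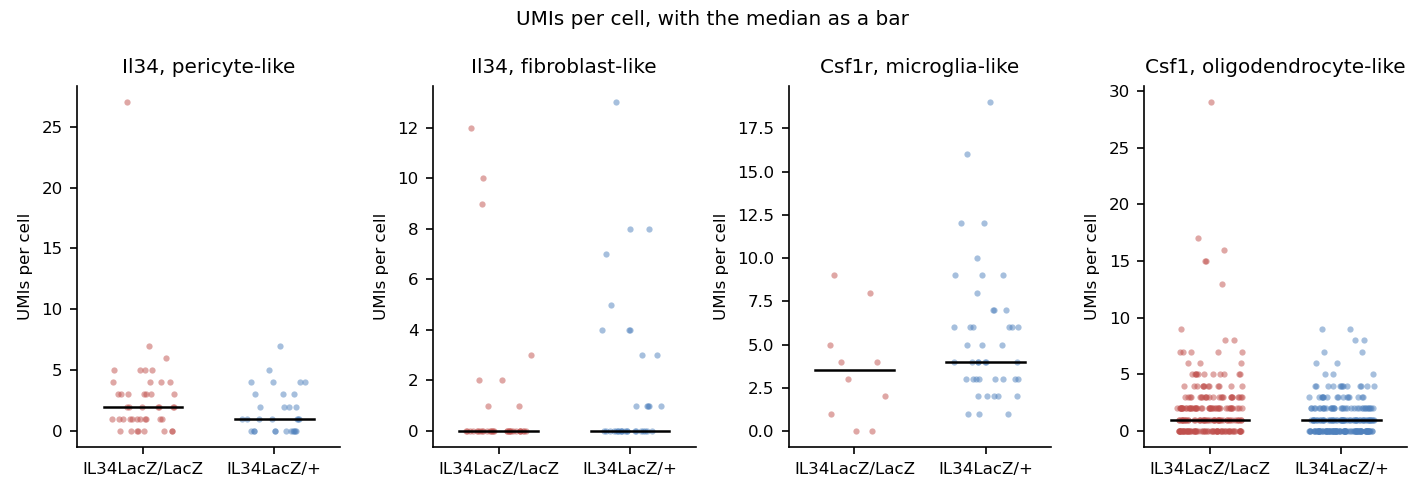
UMIs per cell. Each point is 1 cell, with IL34LacZ/LacZ left of IL34LacZ/+ in each panel and the median as a bar, for Il34 in pericyte-like and fibroblast-like cells, Csf1r in microglia-like cells and Csf1 in oligodendrocyte-like cells. Single cells at 27 Il34 UMIs and 29 Csf1 UMIs stand above the rest in the library labelled IL34LacZ/LacZ, and most fibroblast-like cells have no Il34 UMI.

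The signalling genes downstream of Csf1r were mostly too shallow to compare in microglia-like cells. Of a list of 16 myeloid signalling genes and adaptors, 4 had at least 30 UMIs. Tyrobp, an adaptor of microglial receptors, was at 5324 and 3434 CPM and counted as higher, with a log2 ratio of 0.63 (0.28 to 0.98). Lyn, a Src family kinase, was at 296 and 965 CPM, and Inpp5d, an inositol phosphatase that limits receptor signalling, was at 296 and 1217 CPM. Both counted as lower, each with 5 UMIs in the library labelled IL34LacZ/LacZ. Spi1, the macrophage transcription factor PU.1, had 4 and 33 UMIs and did not count. Among 494 genes that had 30 UMIs or more there, 9.92% counted as higher and 8.7% as lower. The median log2 ratio was -1.19 over these 4 genes and 0.01 over the 494.

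Of 14 other myeloid growth factors and receptors 3 were measured in microglia-like cells. Cx3cr1, the fractalkine receptor, counted as lower at 946 and 1780 CPM, with a log2 ratio of -0.91 (-1.75 to -0.17). Tgfbr1, at 769 and 1309 CPM, and Tgfbr2, at 118 and 368 CPM, did not count.

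Ptprz1 (chromosome 6, chr6:22875502-23052916, plus strand, 30 exons) was an astrocyte gene in these libraries. Astrocyte-like cells had 2287 CPM (2197 to 2381) from 2384 UMIs in the library labelled IL34LacZ/LacZ and 2620 CPM (2550 to 2691) from 5357 UMIs in the library labelled IL34LacZ/+. They held 77.2% and 85.1% of all Ptprz1 UMIs, and 106 of 109 and 231 of 233 cells had at least 1. The log2 ratio was -0.20 (-0.27 to -0.13), which leaves out 0 but is far from 1.5-fold. In astrocyte-like cells 2.73% of 5273 measured genes counted as higher and 3.6% as lower.

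The direction for Ptprz1 was not the same in every astrocyte-like cluster. In the cells led by Kcnd2 and Gria1 the library labelled IL34LacZ/LacZ had the higher level, 2294 CPM (2141 to 2455) against 1989 CPM (1874 to 2109). In the cells led by Agt and Slc6a11 it was lower, at 2364 CPM (2202 to 2534) against 2781 CPM (2668 to 2898). In the cells led by St6galnac5 and Cspg5 it was also lower, at 2748 CPM (2543 to 2965) against 3074 CPM (2928 to 3226). The log2 ratios were 0.21, -0.23 and -0.16, all within 1.5-fold.

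Outside astrocytes the highest Ptprz1 was in the 2 and 7 neuroblast-like cells, at 474 and 736 CPM. Oligodendrocyte-like cells had 5.30 and 8.58 CPM, choroid plexus epithelium 2.53 and 5.19 CPM and pericyte-like cells 2 and 1 UMIs. Endothelial-like cells had 4.89 and 11.9 CPM from 8 and 30 UMIs and counted as lower, with a log2 ratio of -1.28 (-2.62 to -0.12). Among 9533 genes that had 30 UMIs or more there, 3.23% counted as higher and 6.39% as lower. At this level, the part of free RNA from the much richer astrocytes was not tested. The summed astrocyte markers of endothelial-like cells moved the same way, at 154 and 232 CPM. Over all kept cells Ptprz1 was at 222 and 395 CPM, and the share of astrocyte-like cells was 9.34% and 14.2%. The genes most like Ptprz1 were Acsbg1, Ncan, Ttyh1, Gpr37l1 and Bcan, with r between 0.88 and 0.90.

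All 9 listed ligands and partners of Ptprz1 were measured in astrocyte-like cells. Ptn (pleiotrophin), the best known ligand of Ptprz1, was at 1088 and 1362 CPM, with a log2 ratio of -0.32 (-0.42 to -0.22). Its relative Mdk (midkine) was at 97.9 and 115 CPM. The adhesion molecules Cntn1, Nrcam and Ncam1 were at 743 and 785, 1069 and 1188, and 1480 and 1418 CPM. None of these counted as changed. Of the 9 genes 1 counted as higher and 2 as lower, beside 3.84% and 3.91% of all 9512 genes measured there. Tnr (tenascin-R) counted as higher, at 34.5 and 18.1 CPM, with a log2 ratio of 0.93 (0.23 to 1.63). Tnc (tenascin-C) counted as lower with 2 and 51 UMIs, and Alk, a receptor tyrosine kinase that binds the same ligands, with 3 and 40 UMIs. The median log2 ratio of the 9 genes was -0.23, and that of all 9512 genes -0.04.

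Sdc1 (chromosome 12, chr12:8771323-8793715, plus strand, 5 exons) was barely detected, with 29 and 34 UMIs in all kept cells, or 2.09 and 2.13 CPM. Choroid plexus epithelium, the secretory epithelium of the ventricles, held the most, 9 and 12 UMIs, or 2.53 CPM (1.16 to 4.81) and 2.71 CPM (1.40 to 4.73). The log2 ratio there was -0.10 (-1.52 to 1.27). As CPM, fibroblast-like cells were highest among the marker classes with 10 or more cells, with 8.12 CPM (2.21 to 20.8) and 16.3 CPM (6.56 to 33.6) from 4 and 7 UMIs. Cells that reached no list had 10.2 and 5.13 CPM from 2 and 1 UMIs. Cells on both the fibroblast and the border list had 3 and 5 UMIs. Pericyte-like, neuron-like and microglia-like cells held none, and differences in Sdc1 between the libraries were not detectable at this depth. Its nearest genes by correlation, Fmod, Fam180a, Fndc1, Lum and Col14a1, rest on these 63 UMIs.

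The other heparan sulphate genes were better measured in fibroblast-like cells, where 13 of 17 had at least 30 UMIs. The glypican Gpc6 was the most abundant, at 1041 and 809 CPM. The syndecans Sdc2, at 333 and 301 CPM, and Sdc4, at 203 and 247 CPM, were far above Sdc1 in CPM, which is per UMI and not per length, and did not count as changed. Of the 13 genes 1 counted as higher and 2 as lower, beside 4.96% and 6.97% of all 5929 genes measured there. Gpc5 counted as higher, at 156 and 30.3 CPM. Ext1, a polymerase of the heparan sulphate chain, was at 221 and 415 CPM, and Hs2st1, a sulphotransferase, was at 62.9 and 114 CPM. Both counted as lower. The median log2 ratio of the 13 genes was 0.03, beside -0.03 over all genes measured in that class. The cluster led by Cemip, Lama1 and Slc6a13 made up 11 of the 37 and 15 of the 35 fibroblast-like cells. The part of this mix in these ratios was not tested.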

How the data were processed

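The 3-prime droplet assay of 10x Genomics was used, per the labels' protocols. The authors deposited UMI counts for each gene and barcode. The file headers name Cell Ranger 7.1.0, and the build in the submitters' processing notes is GRCm38.p6 (mm10). What annotation release was used, whether free RNA was removed and whether intronic reads were counted is not given in the sources used here. Counts were used as deposited.

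Barcodes with at least 1000 UMIs, 500 genes and at most 15% mitochondrial UMIs were kept. That limit alone was exceeded by 47.8% of barcodes in the library labelled IL34LacZ/LacZ and 38.5% in the library labelled IL34LacZ/+. Scrublet in scanpy 1.11.5 marked 8 (0.681%) and 22 (1.32%) doublets, which were removed. Of 19 marker lists, all but the arterial, venous and erythrocyte lists set a class (at least 50% detected). Barcodes with 50% or more haemoglobin UMIs were set apart. Leiden clusters (2000 variable genes without the 5 members, 30 components, 15 neighbours, resolution 1) served as the finer groups and as an alternative. Counts were summed per class and library and scaled to CPM. Ratios were measured for genes with at least 100 UMIs and 20 CPM, and for list genes, Csf1 in astrocyte-like and fibroblast-like cells and Ptprz1 in endothelial-like cells with at least 30 UMIs. Named genes were the members, genes of 4 lists and, for each member with at least 50 UMIs, the 5 genes with the highest Pearson correlation. The genes compared for this had at least 100 UMIs. The ratio and interval code was tested on simulated data. Positions and the sequence come from GENCODE M21. The members, the lists and the filters were chosen with earlier results of these data known.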

Additional observations from a re-analysis of the deposited data

Results flagged for a closer look

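The ratio of Il34 between the libraries pointed in opposite directions in the classes that hold it. It was 0.51 on the log2 scale in pericyte-like cells and -0.88 in fibroblast-like cells, IL34LacZ/LacZ over IL34LacZ/+. The fibroblast-like value depends on which cells are admitted. It was -0.11 (-0.72 to 0.49) in those of the cluster led by Cemip, Lama1 and Slc6a13, and 0.55 with clusters in place of the gate. With 1 library per genotype the difference between these ratios was not tested.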

How the results depend on the processing

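Of 84 recomputed results, 74 did not move. These 74 include the class with the highest level of each member, which has no interval and stayed the same. The others among them stayed within the 95% interval of the reported value. Il34 in fibroblast-like cells turned round, from -0.88 to 0.55 with clusters in place of the gate and to 0.42 with mixed cells put in their best class, and it was -0.11 within the cluster led by Cemip, Lama1 and Slc6a13. Il34 in pericyte-like cells was 0.73 with clusters, past 1.5-fold and so counted as higher, and -0.090 after thinning each cell to 1000 UMIs, which left 20 and 15 UMIs. Csf1 in endothelial-like cells was -0.039 after thinning and -0.17 without the cluster led by Igfbp3, Plvap and Btnl9. Csf1r in microglia-like cells was -1.20 with clusters and -1.95 with mixed cells in their best class. Both settings held 46 and 244 Csf1r UMIs, more than the 36 and 241 of the gate, over a larger total of UMIs. Ptprz1 in astrocyte-like cells was -0.12 with 1 more marker in the gate and -0.29 with mixed cells in their best class. Csf1 in oligodendrocyte-like cells ranged from 0.18 to 0.46, Csf1 in astrocyte-like cells from 0.58 (no filter on cells) to 1.10 (thinned), where at both ends it no longer counted as higher, and Sdc1 in choroid plexus epithelium from -0.23 to 0.45. The class with the highest level of each member was the same for 5 of 5 members with clusters. The alternatives with mixed cells in their best class and those that split or leave out a cluster were chosen after seeing the data. The causes were not tested. No paired analysis was possible because each genotype had 1 library. Depth limits Sdc1 in every class and Csf1r in the 10 microglia-like cells of the library labelled IL34LacZ/LacZ, and no value here separates genotype from library.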
